A study of Rattus norvegicus with 10 samples.

Results

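The insulin-like growth factor (IGF) axis was followed through 10 genes in HSC-2, a line of stellate cells from the liver of Wistar rats. The genes were Pappa2, Igf1, Igf1r, Igf2r and the binding proteins Igfbp2 to Igfbp7. Every probe set whose only gene symbol was 1 of these 10 was taken, which gave 21 of the 31099 probe sets on the Affymetrix array, where 14218 genes were named by a single symbol. The probe set with the highest mean stands for its gene in what follows, unless another is named; for Pappa2 it was 1389579_at, for Igf1 1370333_a_at, for Igf1r 1392492_at, for Igf2r 1386872_at, for Igfbp2 1367648_at, for Igfbp3 1367652_at, for Igfbp4 1371462_at, for Igfbp5 1370960_at, for Igfbp6 1372168_s_at and for Igfbp7 1371357_at. Of the 21, 20 were tested; the other, 1 of the 3 probe sets of Igf1, was at the lowest deposited value on all 10 arrays. RNA was measured in untransfected cells, in a line transfected with a scrambled sequence, which the series text calls GFPscr, and in 3 transfected clones, labelled S1, S4 and S5, made to overexpress rno-miR-146a, a microRNA. Each of these 5 lines was hybridised at cell passage 42 and at passage 43, on 1 array each, and all were grown in high-glucose medium with serum. Each clone is a single line. Whether the scrambled line is a clone or a pool is not given in the sources used here, and mature miR-146a was not measured by these arrays, so its overexpression rests on the labels.

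IGF1 and IGF2 are secreted growth factors that signal through the tyrosine kinase receptor IGF1R, while IGF2R binds IGF2 for breakdown and also carries mannose 6-phosphate enzymes to lysosomes. In tissue fluid most IGF is held by binding proteins, and proteases such as PAPP-A2, the product of Pappa2, cut certain binding proteins, chiefly IGFBP-3 and IGFBP-5, and so free the growth factor. In liver, hepatocytes make most circulating IGF1, and stellate cells, the pericytes that lay down matrix after injury, are a source of binding proteins and respond to IGF1.

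The 5′ strand of rno-miR-146a is shown because the labels give this microRNA as overexpressed in the clones, without naming a strand. RefSeq (rat build GRCr8) places the 5′ strand at chr10:28350053-28350074 on the minus strand. Capitals mark the seed, bases 2 to 8.
rno-miR-146a-5p: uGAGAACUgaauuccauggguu
The 250 bases before the start site are shown for the genes on which the results turn, in the direction of transcription. Pappa2 is the gene whose difference between clones and control lines passed the test, Igf1r, Igf2r and Igfbp7 were lowest in the scrambled and highest in the untransfected line, and Igfbp5 differed most between passages. All 10 genes had an entry in the RefSeq promoter table of GRCr8. Capitals mark matches, on either strand, to 5 motifs searched for: the TATA box TATAAA, the CAAT box CCAAT, the GC box GGGCGG, the E-box CACGTG and the forkhead motif GTAAACA.
Pappa2, chr13:73681569-73681818, minus strand: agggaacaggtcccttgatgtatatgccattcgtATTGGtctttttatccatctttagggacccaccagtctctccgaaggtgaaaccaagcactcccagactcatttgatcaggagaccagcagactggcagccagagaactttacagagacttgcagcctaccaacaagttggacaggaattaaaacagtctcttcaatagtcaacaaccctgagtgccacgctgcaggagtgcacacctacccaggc
Igf1r, chr1:130959747-130959996, plus strand: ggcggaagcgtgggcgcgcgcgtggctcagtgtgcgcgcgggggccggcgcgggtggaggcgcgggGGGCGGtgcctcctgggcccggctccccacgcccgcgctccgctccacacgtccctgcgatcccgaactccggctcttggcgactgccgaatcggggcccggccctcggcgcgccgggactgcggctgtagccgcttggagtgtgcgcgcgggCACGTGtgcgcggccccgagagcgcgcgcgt
Igf2r, chr1:50526628-50526877, plus strand: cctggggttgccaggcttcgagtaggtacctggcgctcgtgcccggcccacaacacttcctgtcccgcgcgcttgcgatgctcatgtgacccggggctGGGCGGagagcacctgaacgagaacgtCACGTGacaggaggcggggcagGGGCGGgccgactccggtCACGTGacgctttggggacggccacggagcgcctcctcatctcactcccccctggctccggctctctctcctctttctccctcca
Igfbp7, chr14:31091486-31091735, plus strand: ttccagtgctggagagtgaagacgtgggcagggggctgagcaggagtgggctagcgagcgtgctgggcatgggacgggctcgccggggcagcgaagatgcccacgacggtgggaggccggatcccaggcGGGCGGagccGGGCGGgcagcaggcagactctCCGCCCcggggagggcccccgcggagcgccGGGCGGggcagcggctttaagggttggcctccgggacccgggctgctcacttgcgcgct
Igfbp5, chr9:81914188-81914437, minus strand: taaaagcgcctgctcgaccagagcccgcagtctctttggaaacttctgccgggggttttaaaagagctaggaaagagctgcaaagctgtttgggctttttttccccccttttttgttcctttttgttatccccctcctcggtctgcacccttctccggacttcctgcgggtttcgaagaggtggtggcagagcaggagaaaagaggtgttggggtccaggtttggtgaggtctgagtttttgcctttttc
For Pappa2, Igf1r and Igfbp7 the start site in this table lies inside the annotated span of the gene.

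The windows differed in base composition. Those of Igf1r (79.6% GC), Igfbp7 (74.4% GC) and Igf2r (68.0% GC) were richer in GC than the median window of 33469 promoters, 51.2%, whereas Pappa2 (49.2%) and Igfbp5 (51.6%) lay near it. GGGCGG was present in 4 of the 10 windows, those of Igf1r, Igf2r, Igfbp2 and Igfbp7, against 30.5% of all promoters. CACGTG was present in 3, those of Igf1r, Igf2r and Igfbp2, against 5.59% of all promoters. Igfbp4 alone held TATAAA, 40 bases before its start (12.9% of all promoters), Pappa2 alone held CCAAT, 216 bases before it and on the opposite strand (34.0%), and Igfbp6 alone held GTAAACA (3.21%). No match overlapped another. The windows of Igf1, Igfbp3 and Igfbp5 held none of the 5 motifs. These matches describe letters in a window and not bound sites.

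The arrays were close in overall level, with medians between 97.7 and 103.7 intensity units. Of the probe sets, 27520 could be tested, and 14.6% of all deposited intensities were at the lowest value, 20. Markers of stellate cells were unequal in level. Col1a1, Col1a2, Col3a1 and Vim, the fibrillar collagens and vimentin, were at 17936 to 27458 intensity units, and Acta2, an actin of smooth muscle that marks activation, at 1124 to 9626. Lrat, the enzyme of retinoid storage, was at the lowest value on every array, and Gfap and Reln, markers of quiescent stellate cells, reached at most 41.5 units. Of the defining markers of other cell types, Alb of hepatocytes reached at most 38.4 units, Ptprc of leukocytes at most 21.0, and Cd163, Lyve1 and Epcam were at the lowest value throughout. Other markers of these cell types read higher. Among macrophage and leukocyte markers, Cd14 was at 452 to 716 units and Clec4f at 98.7 to 110.8. Ttr of hepatocytes was at 150 to 207 and Tek of endothelial cells at 99.8 to 197.5. Summed over the list, hepatocyte markers reached 397 to 471 units on control arrays and 412 to 453 on clone arrays, macrophage and leukocyte markers 663 to 865 and 775 to 929, endothelial markers 219 to 325 and 228 to 279, and biliary markers 84.7 to 92.8 and 91.6 to 106.4.

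**Figure D1:**
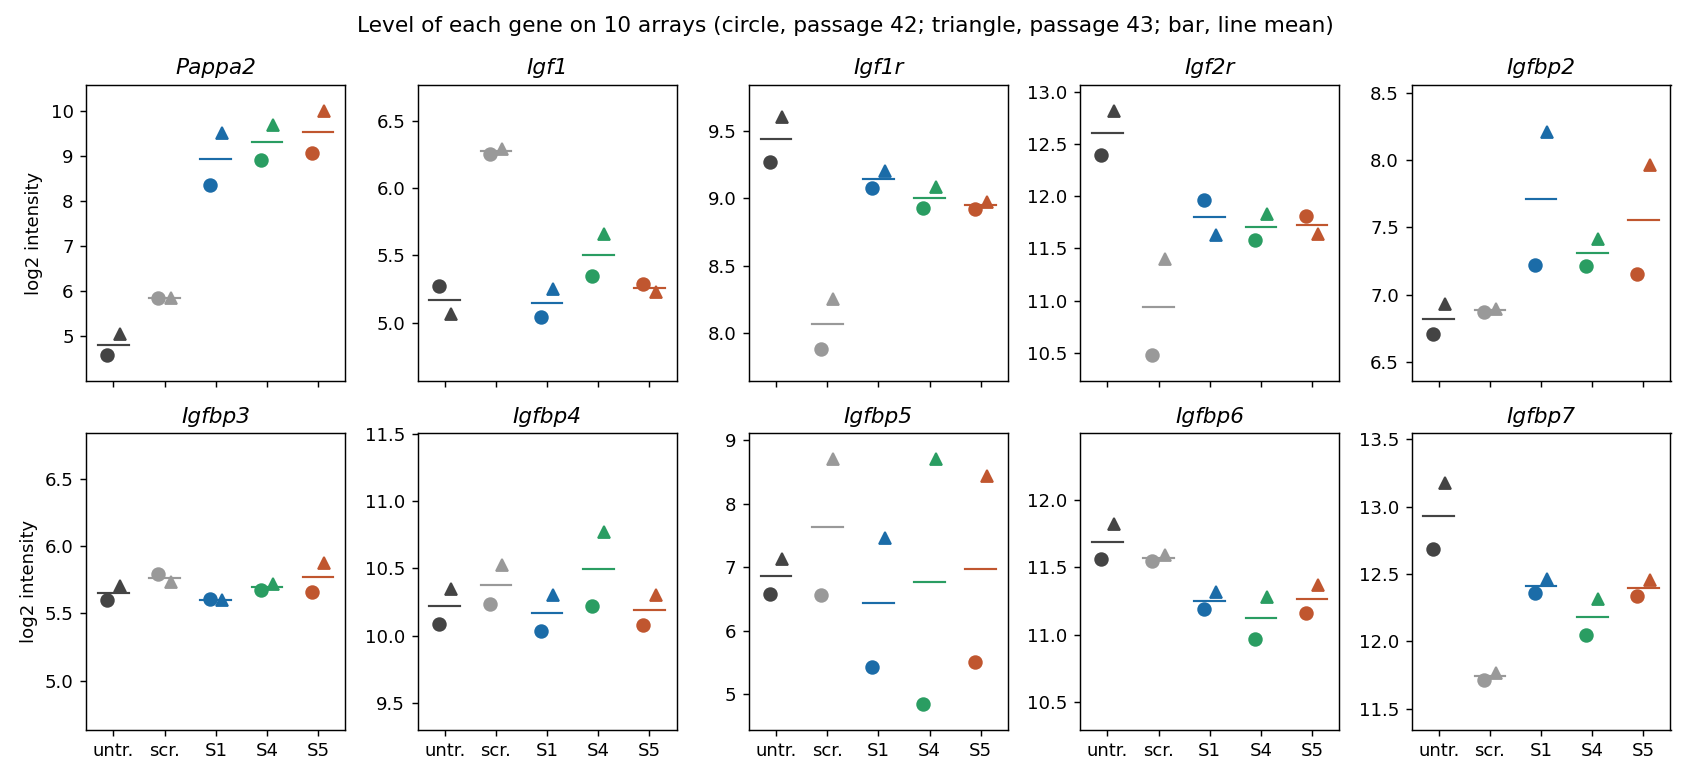
Level of each of the 10 genes (y axis, log2 intensity of the probe set with the highest mean; the axis range differs between panels but spans at least 2 log2 units) in the untransfected (untr.) and scrambled (scr.) lines and clones S1, S4 and S5 (x axis), with circles for passage 42, triangles for passage 43 and bars for line means. Pappa2 is higher on all 6 clone arrays than on the 4 control arrays, while Igf1r, Igf2r and Igfbp7 are lowest in the scrambled line and highest in the untransfected line.

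Pappa2, the secreted metalloprotease of the axis, was the member whose difference between clones and control lines passed the test over line means. In the untransfected line its brighter probe set read 23.9 intensity units at passage 42 and 33.2 at passage 43, near the lowest value of 20. In the scrambled line it read 57.6 and 58.2. In the clones it read 329.3 then 730.4 in S1, 486.9 then 836.5 in S4, and 540.0 then 1037 in S5, with passage 42 given before passage 43, as for all genes that follow. All 6 clone arrays thus lay above all 4 control arrays, and the gap between the lowest clone array and the highest control array was wider than any gap within the clones on this log2 scale.

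Over line means, Pappa2 was at a log2 intensity of 9.27 ± 0.31 (SD, n = 3 clones) and 5.34 ± 0.74 (SD, n = 2 control lines). The difference of 3.93 (SE 0.35) passed the limma test across all probe sets (adjusted p = 0.0306). It was the only member probe set of 20 to pass in this comparison, in which 0.898% of all tested probe sets passed. An unadjusted p under 0.05 was found for 5 of the 20 and for 4251 of all 27520. The call was lost without S1 (4.10, adjusted p = 0.184), without S4 (3.91, adjusted p = 0.142), without S5 (3.79, adjusted p = 0.265) and with passage 42 alone (3.58, adjusted p = 0.140).

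Set against the untransfected line, Pappa2 was higher by 4.12 in S1, 4.50 in S4 and 4.73 in S5 (each SE 0.45; limma adjusted p = 0.00298, 0.00211 and 0.00190). No fold is given here, as the untransfected arrays lay near the lowest deposited value. Against the scrambled line it was higher by 3.08, 3.46 and 3.69 (adjusted p = 0.00994, 0.00578 and 0.00522), or by 8.47-fold in S1 and 12.9-fold in S5. Whether the passages of a line came from separate cultures is not stated, so p-values of such comparisons rest on a spread between passages that may be technical. In bulk RNA, more cells that express a gene and more RNA per cell cannot be told apart.

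Leaving out single arrays kept every call of the brighter Pappa2 probe set against the untransfected line. The calls of its dimmer probe set against that line were lost without the untransfected line at passage 43. Against the scrambled line, the call in S1 was lost without either scrambled array (adjusted p = 0.0609 without passage 42 and 0.0839 without passage 43) and without S1 at passage 43 (2.51, adjusted p = 0.0812). The call in S4 was lost without the scrambled line at passage 43 (adjusted p = 0.0562) and without S4 at passage 43 (3.07, adjusted p = 0.0650). The call in S5 was lost without the scrambled line at passage 43 (adjusted p = 0.0555) and without S5 at passage 43 (3.22, adjusted p = 0.0632). The difference itself was 2.51 or more in each of these fits.

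The order of the lines for Pappa2 ran from untransfected through scrambled, S1 and S4 to S5. The neighbours S1 and S4 differed by 0.38, and S4 and S5 by 0.23, both less than the SE of 0.45, and an F test between the clones gave an adjusted p of 1. The scrambled line exceeded the untransfected line by 1.04 (adjusted p = 0.220, or 0.0350 with passage as a replicate block). A dimmer probe set of Pappa2 had the same separation: its control arrays read 56.1 to 90.4 units and its clone arrays 116.9 to 248.3. For it, the clones exceeded the control lines by 1.31 (SE 0.18, adjusted p = 0.0650), and single clones exceeded the untransfected line by 1.32 in S1, 1.51 in S4 and 1.74 in S5 (adjusted p = 0.0368, 0.0244 and 0.0154) and the scrambled line by 0.88, 1.08 and 1.31, of which that in S5 passed (adjusted p = 0.137, 0.0801 and 0.0428).

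**Figure D2:**
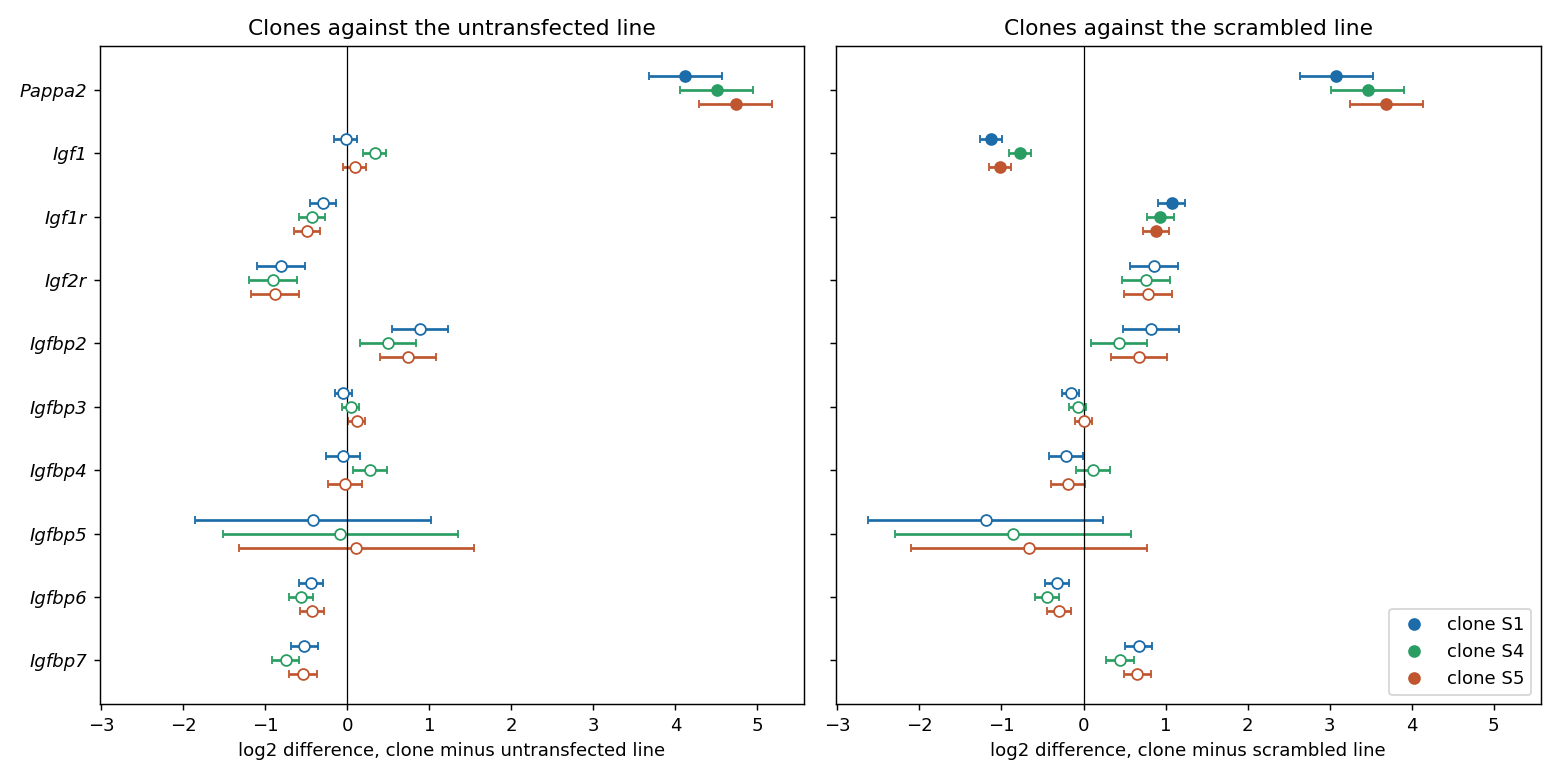
Difference in log2 intensity (x axis) between each clone and the untransfected line (left) or the scrambled line (right) for the 10 genes (y axis), with bars for the SE; filled points passed the limma test and open points did not. Against the untransfected line the filled points are those of Pappa2, and against the scrambled line those of Pappa2, Igf1r and Igf1, the last lower in each clone.

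Of the 20 member probe sets, 2 passed against the untransfected line in each clone, both of Pappa2 and both higher. The share of all tested probe sets that passed was 4.38% for S1, 3.52% for S4 and 3.63% for S5. Against the scrambled line, 4 member probe sets passed in S1, 3 in S4 and 4 in S5, where the shares over all probe sets were 4.19%, 3.64% and 3.44%. The control lines differed from each other in 6 of the 20, 1 higher and 5 lower in the scrambled line, against 6.10% of all probe sets. With passage as a replicate block, 5 passed in S1, 6 in S4 and 7 in S5 against the untransfected line. Against the scrambled line 6, 5 and 5 passed, and 7 between the control lines. Calls over all 27520 tested probe sets rose with the block too. Against the untransfected line they went from 1205, 970 and 999 to 2439, 1904 and 2103. Against the scrambled line they went from 1153, 1002 and 948 to 2129, 1906 and 1845, and between the control lines from 1679 to 3602. Without the block, the members called against the scrambled line and not against the untransfected line were Igf1 and Igf1r, in which the control lines themselves differed. Igf2r and Igfbp7 also differed between the control lines but were called against neither of them in any clone. Keeping the 3522 probe sets at the lowest value on all arrays in the fit ended, for the probe sets that stand for a gene, the call of Pappa2 over line means (adjusted p = 0.102) and in S1 against the scrambled line (0.0595), those of Igf1 in S4 (0.0595) and of Igf1r in S4 and S5 (0.0623 and 0.0788) against the scrambled line, of Igf2r between the control lines (0.0684), and of Igfbp4 and Igfbp5 for passage (0.0699 and 0.111).

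Igf1, the ligand, was low in all lines and highest in the scrambled line. Its brightest probe set read 76.5 and 78.2 units in the scrambled line, 38.6 and 33.4 in the untransfected line, 33.0 then 38.1 in S1, 40.6 then 50.5 in S4, and 39.0 then 37.5 in S5. Both scrambled arrays lay above the other 8. The scrambled line exceeded the untransfected line by 1.11 (SE 0.14, limma adjusted p = 0.00502), and S1, S4 and S5 were lower than the scrambled line, with differences of -1.13, -0.77 and -1.02 (adjusted p = 0.00484, 0.0236 and 0.00850).

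Against the untransfected line Igf1 differed by -0.02 in S1, 0.33 in S4 and 0.09 in S5 (adjusted p = 0.973, 0.260 and 0.786), none of which passed. Calls against the scrambled line held in S1 without any single array. In S4 the call was lost without the scrambled line at passage 42 or 43 (adjusted p = 0.0968 and 0.117), without S4 at passage 42 (-0.62, adjusted p = 0.147) and without S5 at either passage (adjusted p = 0.0576). In S5 it was lost without the scrambled line at passage 43 (adjusted p = 0.0664) and without S5 at passage 42 or 43 (adjusted p = 0.0716 and 0.0899). Of the 2 other probe sets of Igf1, 1 was at the lowest value on every array and the other on 9 arrays, with 22.2 units on the scrambled array of passage 43.

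Igf1r, the signalling receptor, was lowest in the scrambled line and highest in the untransfected line, with the clones in between. The brighter of its 2 probe sets read 618.1 and 777.2 units in the untransfected line and 235.8 and 305.0 in the scrambled line. The clones read 540.0 then 589.8 in S1, 487.1 then 541.9 in S4, and 483.5 then 503.6 in S5. The clone arrays overlapped neither control line.

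The scrambled line was lower in Igf1r than the untransfected line by -1.37 on the log2 scale (SE 0.16, 2.58-fold, limma adjusted p = 0.00386). S1, S4 and S5 exceeded the scrambled line by 1.07, 0.94 and 0.88 (adjusted p = 0.0110, 0.0194 and 0.0274). Against the untransfected line they differed by -0.30, -0.43 and -0.49 (adjusted p = 0.369, 0.211 and 0.146); with the replicate block the value in S5 passed (adjusted p = 0.0398). The other probe set of Igf1r was lower in the scrambled than in the untransfected line by -0.88 (adjusted p = 0.0154), and higher than the scrambled line by 0.87 in S1 (adjusted p = 0.0175), 0.54 in S4 and 0.62 in S5 (adjusted p = 0.108 and 0.0688). On that probe set S1 read 403.7 and 378.8 units, against 367.1 and 417.6 in the untransfected line, so there the ranges overlapped.

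The clone calls of Igf1r against the scrambled line rested on few arrays. For S1 the adjusted p was 0.0599 without S1 at passage 42 and 0.117 without S1 at passage 43. For S4 it was 0.0901 without the scrambled line at passage 42, 0.100 and 0.153 without S4 at passages 42 and 43, and 0.0514 without S5 at either passage. For S5 it was 0.105 without the scrambled line at passage 42, 0.0602 without S1 at either passage, 0.0593 without S4 at either passage, and 0.145 and 0.186 without S5 at passages 42 and 43. The difference between the control lines passed in all of these fits.

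Igf2r, which clears IGF2 and sorts lysosomal enzymes, had the same order of control lines at a higher signal. Its brighter probe set read 5378 and 7242 units in the untransfected line and 1421 and 2705 in the scrambled line. S1 read 3988 and 3176, S4 3060 and 3633, and S5 3599 and 3192. The 6 clone arrays lay between the control lines, above both scrambled arrays and below both untransfected arrays.

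The scrambled line was lower in Igf2r by -1.67 (SE 0.29, 3.18-fold, limma adjusted p = 0.0182), a call that was lost without the untransfected line at passage 43 (-1.46, adjusted p = 0.125) and without the scrambled line at passage 42 (-1.21, adjusted p = 0.0641). S1, S4 and S5 differed from the untransfected line by -0.81, -0.90 and -0.88 (adjusted p = 0.181, 0.161 and 0.154) and from the scrambled line by 0.86, 0.77 and 0.79 (adjusted p = 0.188, 0.254 and 0.245). None of the 6 passed. The dimmer probe set was lower in the scrambled line by -1.92 (adjusted p = 0.0136). With the replicate block, its differences passed in S4 and S5 against the untransfected line (-1.22 and -1.08, adjusted p = 0.0319 and 0.0436) and in S1 against the scrambled line (1.09, adjusted p = 0.0422).

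Because the clones lay between the control lines, the difference of Igf2r over line means was -0.03 (SE 0.49, adjusted p = 0.986), and its sign followed the control line that was kept. Without the untransfected line the clones were higher by 0.81 (adjusted p = 0.0261), and without the scrambled line they were lower by -0.87 (adjusted p = 0.0215). Igf1r differed by 0.28 (SE 0.40, adjusted p = 0.795), by 0.96 without the untransfected line (adjusted p = 0.0338), and by -0.41 without the scrambled line (adjusted p = 0.0837).

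Igfbp7, a secreted protein of the wider family that binds IGF weakly, was, like both receptors, lowest in the scrambled and highest in the untransfected line. It read 6600 and 9260 units in the untransfected line, 3353 and 3488 in the scrambled line, 5249 then 5649 in S1, 4226 then 5100 in S4, and 5173 then 5619 in S5. The clone arrays again lay between the control lines without overlap. The scrambled line was lower by -1.19 (SE 0.17, 2.29-fold, limma adjusted p = 0.00835), a call lost without the scrambled line at passage 42 (-1.16, adjusted p = 0.0613).

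Against the untransfected line Igfbp7 differed by -0.52 in S1, -0.75 in S4 and -0.54 in S5 (adjusted p = 0.138, 0.0577 and 0.136), and with the replicate block all of these passed (adjusted p = 0.0442, 0.0149 and 0.0441). The value in S4 also passed after quantile normalization (-0.78, adjusted p = 0.0413). Against the scrambled line it differed by 0.67, 0.44 and 0.66 (adjusted p = 0.0755, 0.254 and 0.0909); with the block S1 and S5 passed (adjusted p = 0.0192 and 0.0233). Without the untransfected line at passage 42, the differences of S1, S4 and S5 from that line passed (adjusted p = 0.0296, 0.0172 and 0.0308). Leaving out the untransfected line at passage 42 or at passage 43 also let S1 and S5 pass against the scrambled line (adjusted p = 0.0329 and 0.0408 in either case).

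Both scrambled arrays lay below all 8 other arrays in 5 of the 20 member probe sets, both of Igf1r, both of Igf2r and that of Igfbp7, against 7.97% of all tested probe sets. Probe sets of a gene measure the same transcript and are not independent. Acta2 moved with this group: it was lower in the scrambled than in the untransfected line by -2.89 (limma adjusted p = 0.000171), as the only called gene of 11 tested stellate cell markers in that comparison. The list as a whole did not: its median difference was -0.07. Des read higher in the scrambled line, at 160.1 and 187.3 units against 110.9 and 111.3. An unadjusted p under 0.05 was found there for 4 of the 11 and for 6185 of all 27520 tested probe sets. Of 5 tested macrophage and leukocyte markers, Csf1r was higher there by 0.78 (adjusted p = 0.0325, and up to 0.127 with a single array left out), at no more than 46.2 units, and 0 hepatocyte, endothelial and biliary markers were called with limma (0, 1 and 0 at an unadjusted p under 0.05). The part of these differences in the values of Igf1r, Igf2r and Igfbp7 was not tested. Against the untransfected line, 1 stellate cell marker was called lower in S1 and 1 in S5, and 0 in S4. Against the scrambled line, 1 was called higher in each clone and 2 were called lower in S1.

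Igfbp6, a binding protein with a preference for IGF2, was lower in the clones on each array. Its brighter probe set read 3022 and 3619 units in the untransfected line and 2986 and 3088 in the scrambled line. It read 2332 then 2545 in S1, 2003 then 2489 in S4, and 2293 then 2642 in S5. The highest clone array stayed below the lowest control array, and the other probe set was arranged likewise, with 1524 to 1900 units on clone arrays and 2249 to 2665 on control arrays.

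The difference of Igfbp6 over line means was -0.42 (SE 0.08), from 11.21 ± 0.08 (SD, n = 3 clones) against 11.63 ± 0.09 (SD, n = 2 control lines), and it did not pass the limma test (adjusted p = 0.116). With the 10 arrays and line as a random block it passed (adjusted p = 0.0307, or 0.0151 with passage as a replicate block as well). The estimated correlation within lines was only 0.0485 and 0.210 in these fits. They thus counted the 2 passages of a line largely as separate samples, unlike the test over line means. The other probe set differed by -0.45 (SE 0.07, adjusted p = 0.0745), and with the replicate block it passed against the untransfected line in S1, S4 and S5 (adjusted p = 0.0247, 0.0160 and 0.0270) and against the scrambled line in S4 (adjusted p = 0.0303). For the brighter probe set, the clones differed from the untransfected line by -0.44, -0.57 and -0.43 (adjusted p = 0.145, 0.0872 and 0.164; with the replicate block 0.0379, 0.0188 and 0.0460). Against the scrambled line they differed by -0.32, -0.44 and -0.30 (adjusted p = 0.351, 0.180 and 0.385), of which S4 passed with the block (adjusted p = 0.0427).

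Igfbp2, a binding protein that can hold both IGFs, was higher on each clone array than on any control array. It read 104.7 and 122.3 units in the untransfected line, 117.3 and 119.1 in the scrambled line, 149.1 then 295.1 in S1, 148.5 then 170.2 in S4, and 142.0 then 249.6 in S5. The arrays of S1 and S5 at passage 43 stood above the rest. The difference over line means was 0.67 (SE 0.13, adjusted p = 0.115), and differences of single clones from the untransfected line, 0.89, 0.49 and 0.73, did not pass either (adjusted p = 0.204, 0.523 and 0.298). Nor did those from the scrambled line, at 0.83, 0.43 and 0.67 (adjusted p = 0.287, 0.644 and 0.414).

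In all, 5 of the 20 member probe sets had the 6 clone arrays on a single side of the 4 control arrays: those of Pappa2 and Igfbp2 above, and those of Igfbp6 below. Over all tested probe sets the share was 7.50%. Between the 3 clones, 0 of 20 passed the limma F test, against 0.0327% of all probe sets. An unadjusted p under 0.05 was found there for 0 of the 20 and for 749 of all 27520 tested probe sets.

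The remaining binding proteins differed little between lines. Igfbp3, the main carrier of IGF in blood, read 48.5 to 58.5 units over the 10 arrays, and its widest difference between line means was 0.16 on the log2 scale. Its dimmer probe set read 33.5 to 39.3 units on all arrays but that of the untransfected line at passage 43, which read 23.8. Igfbp4, which inhibits IGF action near the cell, read 1050 to 1742 units, with line means within 0.33 of each other. Neither passed in any comparison between lines, for any of their probe sets.

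Igfbp5, which binds IGF and matrix, stood apart by its passage and not by its line. At passage 42 it read 96.1 units in the untransfected line, 94.8 in the scrambled line, 43.1 in S1, 28.9 in S4 and 45.5 in S5. At passage 43 it read 140.0, 415.9, 175.2, 414.4 and 345.2 in the same order. Every array of passage 43 thus exceeded every array of passage 42. At passage 42 the 3 clones were below both control lines, and at passage 43 the untransfected line was lowest.

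Within lines, Igfbp5 was higher at passage 43 by 0.54 in the untransfected line, 2.13 in the scrambled line, 2.02 in S1, 3.84 in S4 and 2.92 in S5. These are differences of single arrays and carry no test of their own. Over the 5 lines it rose by 2.29 (SE 0.41, limma adjusted p = 0.0257). No fold is given, as the clone arrays of passage 42, at 28.9 to 45.5 units, lay near the lowest value of 20. The mean change was 2.93 over the clones and 1.34 over the control lines, and the difference of 1.59 did not pass (SE 0.63, adjusted p = 0.584). The rise lost its call without the scrambled line (2.33, adjusted p = 0.0829), S1 (2.36, adjusted p = 0.119), S4 (1.91, adjusted p = 0.0876) or S5 (2.14, adjusted p = 0.139), and its direction held throughout.

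**Figure D3:**
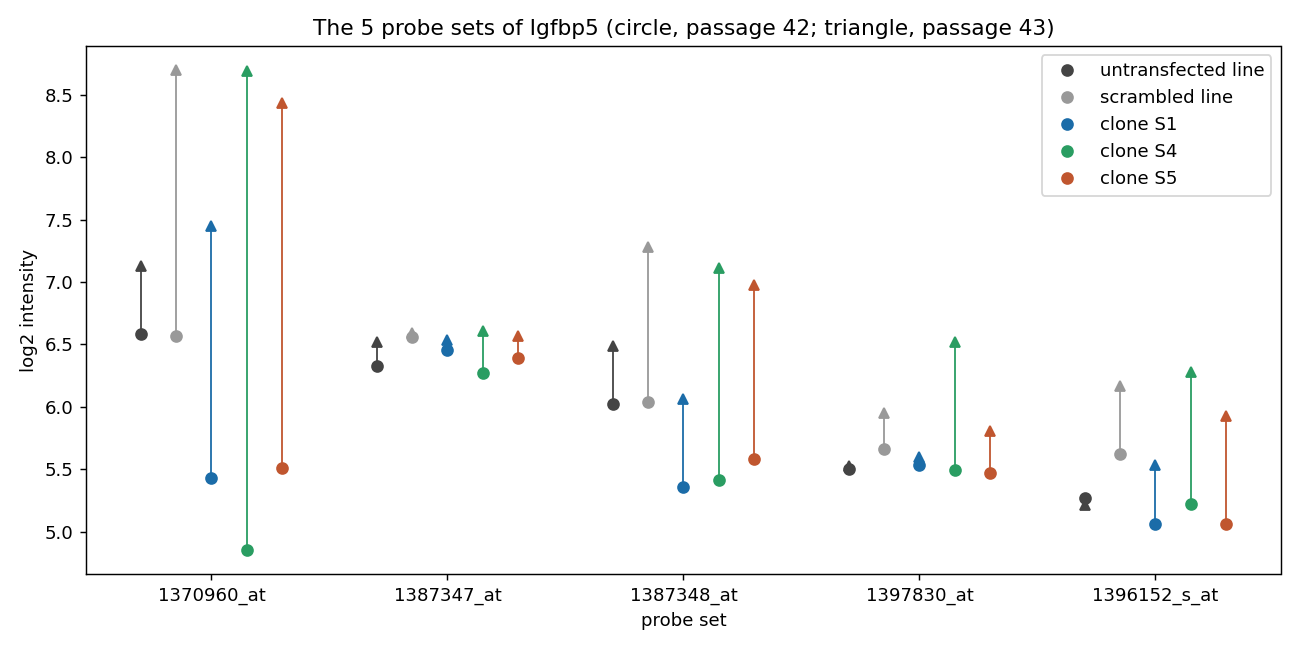
Log2 intensity (y axis) of the 5 probe sets of Igfbp5 (x axis) in the untransfected and scrambled lines and clones S1, S4 and S5, with a circle for passage 42 joined to a triangle for passage 43 of the same line. The probe set 1370960_at shows the widest change and 1387348_at a smaller one, while 1387347_at moves by at most 0.34 in any line.

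The probe sets of Igfbp5 disagreed in size. Another probe set, 1387348_at, read 41.1 to 65.6 units at passage 42 and 66.9 to 155.9 at passage 43 and rose by 1.10 (SE 0.18, limma adjusted p = 0.0195). The other 3 were higher at passage 43 by 0.58 (adjusted p = 0.0742), 0.35 (adjusted p = 0.216) and 0.16 (adjusted p = 0.207), and none of these passed. Correlations of the 5 with each other over the 10 arrays lay between 0.66 and 0.97. With lines that differ in level and passages that move together, such correlations describe the arrays only.

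**Figure D4:**
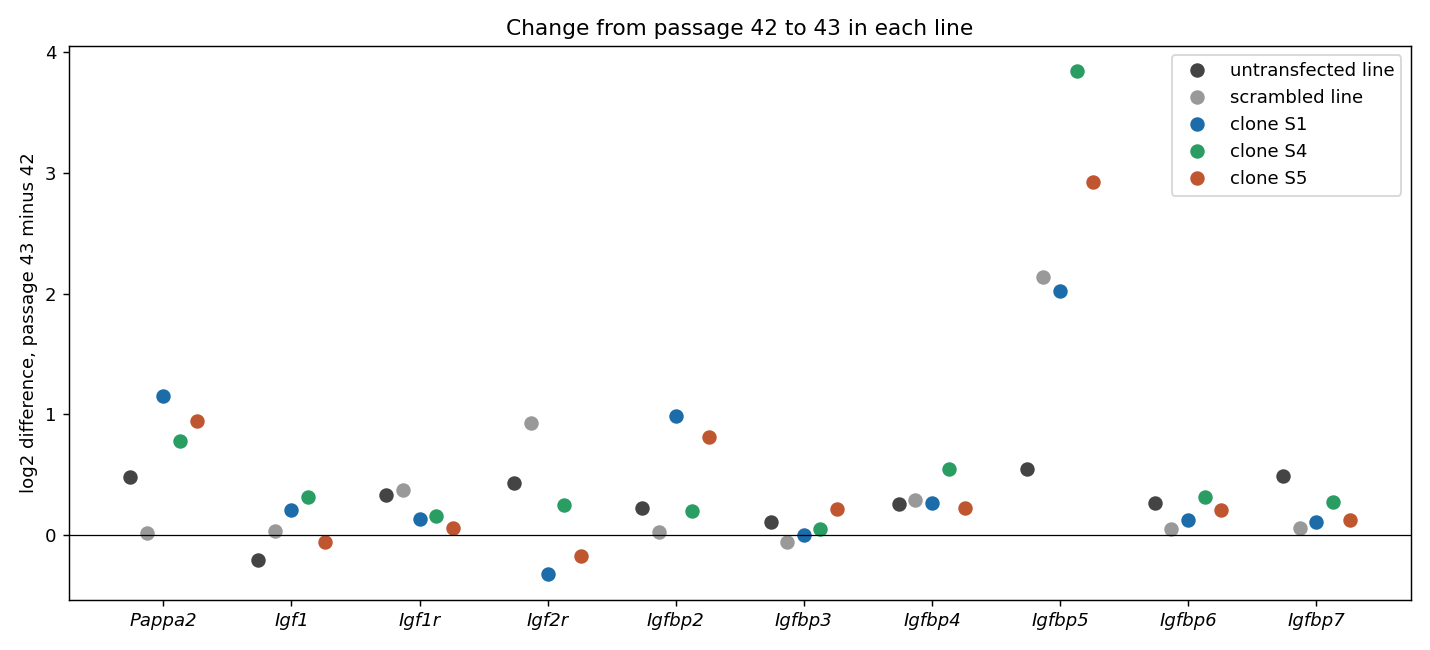
Difference in log2 intensity between passage 43 and passage 42 (y axis) within each of the 5 lines (points) for the 10 genes (x axis). Igfbp5 has the widest changes, from 0.54 to 3.84, and Igfbp4 changes by 0.23 to 0.54 in all 5 lines.

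Igfbp4 also rose with passage. It read 1088, 1202, 1050, 1195 and 1081 units at passage 42 in the untransfected line, the scrambled line, S1, S4 and S5, and 1301, 1472, 1259, 1742 and 1264 at passage 43. It was higher in all 5 lines, by 0.26, 0.29, 0.26, 0.54 and 0.23 in the same order, or by 0.32 over lines (SE 0.07, 1.25-fold, limma adjusted p = 0.0428). The call was close to the threshold and was lost without any of the lines: the adjusted p was 0.0603 without the untransfected line, 0.0915 without the scrambled line, 0.148 without S1, 0.118 without S4 and 0.138 without S5.

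Pappa2 was higher at passage 43 by 1.15 in S1, 0.78 in S4 and 0.94 in S5, and by 0.48 and 0.01 in the untransfected and scrambled lines. Over the 5 lines the change of 0.67 (SE 0.16) stood just outside the threshold (adjusted p = 0.0527), and it passed without the scrambled line (0.84, adjusted p = 0.0361), after quantile normalization (0.70, adjusted p = 0.0435) and with dim probe sets left out (adjusted p = 0.0290). The difference in change between clones and control lines was 0.71 (SE 0.19, adjusted p = 0.453). Igfbp2 was higher by 0.98 in S1, 0.20 in S4 and 0.81 in S5, and by 0.22 and 0.02 in the untransfected and scrambled lines, with a change over lines of 0.45 (SE 0.15, adjusted p = 0.135).

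In all, 3 of the 20 member probe sets passed for passage, 2 of Igfbp5 and 1 of Igfbp4, all higher at passage 43. Of all tested probe sets, 5.52% passed. An unadjusted p under 0.05 was found for 12 of the 20, several of them probe sets of the same gene, and for 5903 of all 27520. For the difference in passage change between clones and control lines, limma called 0 of 20, against 0.0182% of all probe sets. An unadjusted p under 0.05 was found there for 5 of the 20 and for 2298 of all 27520 tested probe sets. In 11 of the 20, passage 43 was higher than passage 42 in every line, against 9.57% of all probe sets. These 11 belong to 7 genes: Igfbp5 with 4, Igfbp6 with 2, and Pappa2, Igf1r, Igfbp2, Igfbp4 and Igfbp7 with 1 each. The median change over the 20 was 0.21, against -0.0012 over all probe sets. What else differed between the arrays of passage 42 and passage 43 is not given in the sources used here.

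Beyond the members, a list drawn up for binding protein proteases and their inhibitors held 12 tested genes. It also took in the proprotein convertases Furin and Pcsk6, and cutting of binding proteins was not measured. In the clones 2 of the 12 were higher than in the control lines and 10 did not pass. Pcsk6, a proprotein convertase, read 135.7 and 216.8 units in the untransfected line, 90.5 and 73.8 in the scrambled line, and 799.7 to 1478 on the clone arrays, a difference of 3.21 (SE 0.32, limma adjusted p = 0.0372). Adam9, a membrane protease reported to cut IGFBP-5, differed by 0.70 (SE 0.07, adjusted p = 0.0381), from 74.4 to 92.5 units on control arrays and 126.6 to 163.6 on clone arrays. Both calls were lost without S1 (adjusted p = 0.222 for each), S4 (0.147 for Pcsk6 and 0.149 for Adam9) or S5 (0.292 for each), at either passage alone, and with all probe sets kept (0.109 for Pcsk6 and 0.0777 for Adam9).

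Plat, tissue plasminogen activator, was highest in the untransfected line, at 3235 and 2387 units, and read 646.6 and 1139 in the scrambled line and 292.0 to 498.3 in the clones. Its differences from the untransfected line were -2.53 in S1, -3.22 in S4 and -2.79 in S5 (limma adjusted p = 0.00224, 0.000786 and 0.00167) and -1.70 in the scrambled line (adjusted p = 0.0106). Against the scrambled line, 1 gene of this list was called lower in S4 and 0 in S1 and S5, and 1 was called higher in each clone. In S4 Plat read 305.0 and 292.0 units. Stc1 and Stc2, the stanniocalcins that inhibit the pappalysins, were not called in any comparison. Ctsd, the lysosomal protease cathepsin D, rose with passage by 0.66 (SE 0.06, adjusted p = 0.00938) and was the only gene of this list to do so, a call lost without S1, S4 or S5 (adjusted p = 0.0815, 0.0603 and 0.0878). Pappa was not analysed here.

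Of the ligands and carriers outside the members, 5 were tested and none differed between clones and control lines with limma, nor at an unadjusted p under 0.05. Igf2, the second ligand, read 80.4 to 92.6 units on the 10 arrays, and Igfbp1, a binding protein of hepatocytes, 20 to 25.5. Crim1, a membrane protein with an IGF-binding protein motif, was the only called gene of the list. It was lower in the scrambled than in the untransfected line by -2.04 (adjusted p = 0.00996) and higher than the scrambled line by 1.88, 2.06 and 1.81 in S1, S4 and S5 (adjusted p = 0.0150, 0.0106 and 0.0205). Without the scrambled line at passage 43 the Crim1 calls in the clones were lost (adjusted p = 0.0866, 0.0582 and 0.108), as they were without either array of the clone itself, and that between the control lines was lost without the untransfected line at passage 43 (adjusted p = 0.0803).

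Among 28 tested genes of receptor signalling, limma called 0 between clones and control lines. An unadjusted p under 0.05 was found for 9 of the 28 and, in the same comparison, for 4251 of all 27520 tested probe sets. Grb14, an adaptor that restrains insulin receptor signalling, was higher than in the scrambled line by 2.47 in S1, 2.04 in S4 and 2.28 in S5 (adjusted p = 0.00559, 0.0123 and 0.00876) and lower in the scrambled than in the untransfected line by -1.58 (adjusted p = 0.0284). Grb10, a related adaptor of IGF1R, was higher in S4 than in the untransfected line by 0.81 (adjusted p = 0.0435). Grb2, the adaptor to Ras, was lower than in the scrambled line by -0.49 in S1 and -0.48 in S5 (adjusted p = 0.0346 and 0.0424). Each of these calls of Grb14, Grb10 and Grb2 was lost when at least 1 single array was left out; the highest adjusted p was 0.107 for Grb14 in the clones, 0.163 for Grb14 between the control lines, 0.256 for Grb10 and 0.209 for Grb2. Irs1, Irs2, Akt1, Akt2 and Mtor were called in no comparison. Of 6 genes of the growth hormone axis, which drives Igf1 in liver, limma called 0 in every comparison, with 1 at an unadjusted p under 0.05 between clones and control lines.

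Genes with the most similar profile over the 10 arrays were taken from 1555 probe sets whose line means ranged over at least 1 log2 unit. For Pappa2 the highest Pearson correlations were those of Ptgis, prostacyclin synthase (0.98), Plxnb1, a semaphorin receptor (0.98), Plagl1 (0.97), Col8a2 (0.97) and Slc12a2 (0.97). For Igf2r they were Nrep (0.96), Crispld2 (0.95), Tmem204 (0.95), Atp8b1 (0.94) and Gtpbp2 (0.93). For Igf1r they were Tmem204 (0.99), Fblim1 (0.98), Ccdc107 (0.97), St6gal1 (0.97) and Vldlr (0.97), so that Tmem204 stood in both lists of the receptors. The arrays fall into 5 lines of 2 passages, so these values describe shared order of lines over 10 arrays that are not independent.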

How the data were processed

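Biotin-labelled RNA of 10 samples was hybridised to Affymetrix arrays, per the labels' protocols. The authors deposited intensities on a linear scale, from 20 to 30192, for which the submitters' processing notes name RMA. The sources used here give neither its version nor whether values were taken back from the log2 scale and raised to 20; a log2 table had been assumed in the design. If they were raised, changes of probe sets near 20 would be understated.

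The log2 of each deposited intensity was tested with limma 3.58.1 (R 4.3.3, eBayes) across 27520 probe sets, after 57 array controls and 3522 probe sets at 20 on all arrays were left out, and a probe set was called at a Benjamini-Hochberg adjusted p under 0.05. The number of arrays limits the precision. Clones and control lines were set against each other on 5 line means (3 residual degrees of freedom), single lines on 10 arrays with 1 coefficient per line (5), and passages with line as a block (4), or as a difference of changes (3). The procedures were tested on simulated data. Gene names came from the platform annotation (19202 tested probe sets with 1 symbol, 399 with several, 7919 with none); all 10 member symbols were found in the RefSeq table of GRCr8. The probe set with the highest mean over the arrays stands for a gene, and levels of different probe sets were not compared.

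Passage deviations of the lines correlated over probe sets in all 10 pairs of lines, from 0.136 to 0.648, so the passage number, which comes from the labels, was taken to pair the samples; the main fits have no such block, and blocked values are given where they change a call. The genes and lists were chosen with earlier results of these data known. All 10 members are named, with listed pathway genes that passed and, for Pappa2, Igf2r and Igf1r, the 5 genes most like each. Igfbp3, Igf2, Igfbp1, Stc1, Stc2 and other genes that did not pass are named as members or list members. Alternatives covered the normalization, filters, a pseudocount of 16, the variance model, blocks, and leaving out arrays or lines.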

Additional observations from a re-analysis of the deposited data

Results flagged for a closer look

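In the dimmer Pappa2 probe set, passage 43 was above passage 42 in all 3 clones (0.69 in S1, 0.05 in S4, 0.63 in S5) and below it in both control lines (-0.18 untransfected, -0.33 scrambled). The mean change in the clones minus that in the control lines was 0.71 (limma adjusted p = 0.496, not passing). Its brighter probe set was higher at passage 43 in every line.

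The dimmer Igfbp3 probe set was split the same way, with changes of 0.02, 0.07 and 0.02 in S1, S4 and S5 and of -0.72 and -0.06 in the untransfected and scrambled lines. The difference was 0.43 (limma adjusted p = 0.640, not passing) and came mostly from the untransfected array of passage 43, at 23.8 intensity units.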

How the results depend on the processing

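Counts of calls were recomputed under the alternatives that apply to each comparison; the passage fits, which pair passages within lines, took no further replicate block. With all probe sets kept, limma called over all probe sets 14 for clones against control lines; 607, 505 and 528 for S1, S4 and S5 against the untransfected line; 613, 574 and 465 against the scrambled line; 1026 between control lines; 4 between clones; 625 for passage and 2 for its difference. Member counts were then 0 for clones against control lines, 1 for each clone against the untransfected line, 2, 1 and 2 against the scrambled line, and 0 for passage. With passage as a replicate block, counts over all probe sets were 2439, 1904 and 2103 against the untransfected line, 2129, 1906 and 1845 against the scrambled line, 3602 between control lines and 25 between clones, and member counts of 5, 6 and 7 against the untransfected line and 5 in S4 against the scrambled line were over 1.5 times those without the block. Clones against control lines gave 3 with passage 42 alone (0 members), 80 with passage 43 alone, 1315 with line as a random block (4 members) and 1205 with the replicate block added (4 members). The random-block fits counted passages of a line largely as separate samples. A pseudocount of 16 left 1 member in S1 against the untransfected line, and a variance trend with robust estimation gave 17 between clones.

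Leaving out a line or an array gave these ranges, first over all probe sets and then over the members: clones against control lines 0 (without S1 or S5) to 2968 (without the scrambled line; 1693 without the untransfected line) and 0 to 4; S1 against untransfected 216 to 2357 and 1 to 3, against scrambled 243 to 1206 and 1 to 5; S4 257 to 1918 and 1 to 3, and 309 to 1095 and 1 to 3; S5 180 to 2136 and 1 to 4, and 228 to 958 and 0 to 4; control lines 608 to 3224 and 3 to 7; between clones 4 to 8 and 0; passage 0 (without S1, S4 or S5) to 1698 (782 without the scrambled line) and 0 to 3; difference of passage changes 0 and 0. Fits with a line left out have fewer residual degrees of freedom, and a line left with 1 array is assumed to vary like the others. Igf2r over line means was -0.03, turned to 0.81 without the untransfected line and was -0.87 without the scrambled line. Over single genes, 53 values lost a call and 29 gained one. Of 1540 signed values, 53 changed sign, in 31 comparisons of a gene; that of Igf2r was the only 1 of them to pass, and 52 did not pass. Low signal limits Igf1 and Igfbp3, and also Pappa2 in control lines and Igfbp5 in clones at passage 42. No cause of these changes was tested.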
